A study of Homo sapiens with 6 samples.

Results

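The genes described here are 10 transcription factors that epithelial cells use: the ETS factors ELF3, EHF, SPDEF, ETS1 and ETS2, the Krüppel-like factors KLF4, KLF5 and KLF6, the forkhead factor FOXQ1 and the grainyhead factor GRHL2. They were chosen by name, with earlier results of these data known, and each was found as its own row among the 25442 genes of the expression table. RNA was sequenced from YAPC cells, a human pancreatic ductal adenocarcinoma (PDA) line, that carry the reverse tetracycline transactivator rtTA and a doxycycline-responsive retroviral vector. In 3 libraries the vector was empty (iEV) and in 3 it carried a GLI2 cDNA with a C-terminal 3xFlag tag (iGLI2). All 6 libraries came from puromycin-selected cells given 1 µg/ml doxycycline for 6 days, so the empty-vector cells also carried rtTA and received the drug. The comparison therefore asks how the RNA of these factors differed with expression of GLI2, a transcription factor of the Hedgehog pathway, in a single cell line. No iGLI2 library without doxycycline is among the 6. An effect of GLI2 and any other difference between the iEV and iGLI2 cell populations therefore cannot be told apart. The labels do not say whether the 3 libraries of a group came from separate cultures, the first and second of each group share a code digit whose meaning is not given, and the study's general statement on biological replicates does not name these libraries. The p-values measure only the spread between these samples, which may be technical.

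ETS factors bind DNA at sites built around a GGA core, and ELF3, EHF and SPDEF are the branch of the family found mainly in epithelia. ETS1 and ETS2 are closely related to each other, are expressed in many cell types and are activated by phosphorylation downstream of ERK signalling. KLF4, KLF5 and KLF6 are zinc-finger proteins that bind CACCC and GC-rich boxes: KLF4 is known for growth arrest and differentiation in epithelia, KLF5 for proliferation, and KLF6 as a rapidly induced factor with growth-suppressing activity. GRHL2 maintains epithelial junction genes, and FOXQ1 has been linked to both epithelial and mesenchymal programs in carcinomas.

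The oligonucleotides used in the study to measure ELF3 and FOXQ1 by quantitative PCR are shown because they place these transcripts on the genome (hg19). The ELF3 forward primer lies in exon 2 of 9 at chr1:201980372-201980392 and the reverse primer in exon 3 at chr1:201981164-201981185, both in coding sequence. They span 157 bases of cDNA and are both present in 4 of 4 coding transcripts. FOXQ1 has a single exon, and its primers lie in the coding sequence at chr6:1313265-1313284 and chr6:1313443-1313462, 198 bases apart from end to end.
ELF3 forward: ggccgatgacttggtactgac
ELF3 reverse: gcttgcgtcgtacttgttcttc
FOXQ1 forward: cacgcagcaagccatatacg
FOXQ1 reverse: cgttgagcgaaaggttgtgg

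The 250 bases upstream of the RefSeq start (GRCh38.p14 promoter table, each placed at 1 position in hg19) are shown for the 4 members that passed the test, so that the letters near each start can be read beside the changes in RNA. The windows are chr21:40176857-40177106 (plus strand) for ETS2, chr1:201979465-201979714 (plus strand) for ELF3, chr10:3827402-3827651 (minus strand) for KLF6 and chr6:1312083-1312332 (plus strand) for FOXQ1. The expression table places the ETS2 start 124 bases and the FOXQ1 start 342 bases beyond these windows. It places the ELF3 start 25 bases and the KLF6 start 72 bases upstream of the RefSeq start, inside the windows. Capitals mark the KLF box CACCC, the GC box GGGCGG and the GLI core CCACCCA on either strand.
ETS2: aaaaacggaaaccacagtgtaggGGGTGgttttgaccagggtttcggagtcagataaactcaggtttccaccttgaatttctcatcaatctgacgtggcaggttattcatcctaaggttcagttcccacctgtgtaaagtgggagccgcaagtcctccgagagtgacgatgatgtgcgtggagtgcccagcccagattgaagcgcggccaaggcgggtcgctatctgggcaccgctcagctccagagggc
ELF3: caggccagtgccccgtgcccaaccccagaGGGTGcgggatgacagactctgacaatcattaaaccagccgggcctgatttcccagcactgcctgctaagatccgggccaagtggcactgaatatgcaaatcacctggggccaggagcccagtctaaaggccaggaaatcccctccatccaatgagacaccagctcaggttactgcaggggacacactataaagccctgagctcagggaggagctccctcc
KLF6: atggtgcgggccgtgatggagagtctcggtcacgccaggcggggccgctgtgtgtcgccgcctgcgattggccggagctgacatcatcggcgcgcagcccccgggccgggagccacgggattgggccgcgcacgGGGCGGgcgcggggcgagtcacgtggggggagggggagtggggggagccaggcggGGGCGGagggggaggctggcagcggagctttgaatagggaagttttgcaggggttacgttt
FOXQ1: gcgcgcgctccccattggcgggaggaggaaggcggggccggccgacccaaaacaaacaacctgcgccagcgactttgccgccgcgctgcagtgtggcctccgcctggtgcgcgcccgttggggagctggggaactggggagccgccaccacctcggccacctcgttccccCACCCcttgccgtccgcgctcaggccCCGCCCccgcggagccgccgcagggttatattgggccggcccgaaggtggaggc

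The ETS2 window held 1 KLF box, 222 bases before the start, and the ELF3 window held 1, 216 bases before it. The KLF6 window, 72.4% G and C, held 2 GC boxes. The nearer one, 55 bases before the RefSeq start, lies inside the KLF6 locus of the expression table, which starts 72 bases upstream. The FOXQ1 window, 74% G and C, held 1 GC box and 1 KLF box. These letters are common: among 27305 promoter windows of the same length, 53.7% held a KLF box and 42.3% a GC box. The GLI core CCACCCA, which contains the KLF box and was present in 8.02% of windows, was in none of these 4, and neither was the longer GLI consensus GACCACCCA, present in 0.216%. Among the members, windows were also read for EHF, SPDEF, KLF4 and KLF5, and of these EHF held 1 GLI core, 51 bases before its start. The expression table starts EHF 3216 bases upstream of that RefSeq start, so this core lies inside the EHF locus of the table. The ETS core CCGGAAG, in 8.82% of windows, and the grainyhead site AACCGGTT, in 0.106%, were in none of the 8 windows. A match describes letters and is no evidence of binding. ETS1 and GRHL2 were not examined.

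GLI2 itself had levels of 0.466, 0.412 and 0.344 FPKM (fragments per kilobase of transcript, scaled to library size) in the iEV libraries and 94.5, 207 and 195 FPKM in the iGLI2 libraries, so the labels held, and iGLI2 replicate 1 had the lowest level of the transgene. The 6 libraries summed to between 803145 and 1082680 FPKM. One small RNA gene, MIR4461, took 42.6 to 45.4% of the iEV totals and 35.7 to 37.7% of the iGLI2 totals, and when small RNA genes were left out and the libraries rescaled the median difference of all genes was 0.06 on the log2 scale, against -0.01 as deposited. Ductal epithelial markers summed to 1888 to 2030 FPKM in iEV and 1709 to 1981 FPKM in iGLI2, although KRT8 and KRT18 were listed at 0 in every library. Fibroblast markers summed to 1.39 to 1.59 and 2.37 to 3.05 FPKM, nearly all of it COL1A1 (mean 1.41 FPKM in iEV and 2.69 FPKM in iGLI2), with every other fibroblast marker under 0.1 FPKM in each library. Endothelial markers summed to 0.473 to 0.479 and 0.424 to 0.599 FPKM, and leukocyte markers to 13.4 to 17.5 and 8.57 to 17.0 FPKM. The leukocyte sum was nearly all LYZ (mean 11.7 FPKM in iEV and 8.45 FPKM in iGLI2) and CD68 (3.04 and 2.94 FPKM). The highest value of PTPRC, CD3E and ITGAM in any library was 0.135 FPKM. The part of these values in the differences below was not tested. In bulk RNA a lower level in every cell and loss from some of the cells cannot be told apart.

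Of the 10 factors, 9 averaged 1 FPKM or more and were tested, and 4 of the 9 (44.4%) differed between iGLI2 and iEV at an adjusted p under 0.05. ETS2 rose, and ELF3, KLF6 and FOXQ1 fell. Over all 12493 genes tested, 21.9% passed: 10.1% were higher and 11.8% lower in iGLI2. The members, and the gene lists below, were chosen with earlier results of these data known. Their shares are therefore no independent comparison with all genes. The libraries of the groups did not overlap for 6 of the 9 tested members, against 42.0% of all genes tested. With 3 libraries against 3, an exact permutation test of a single gene cannot give a two-sided p below 0.1, so the tests below are those of limma, a linear model fitted across all tested genes. Differences are on the scale of log2(FPKM + 1).

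**Figure D1:**
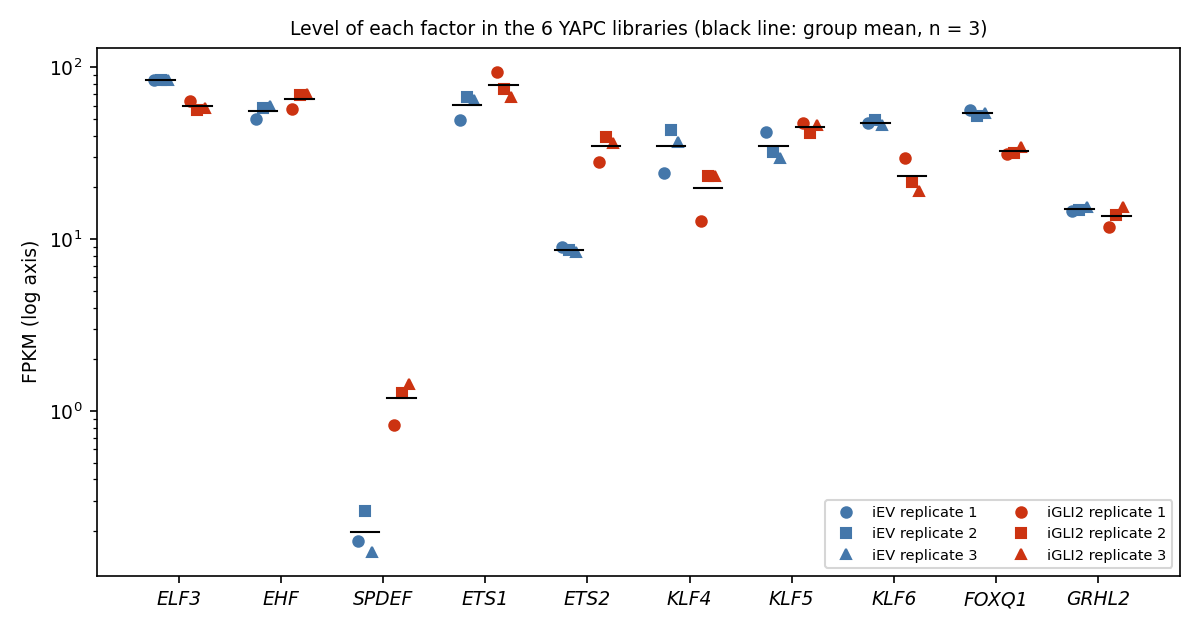
Level of each of the 10 factors in FPKM, on a log axis, with a point for each of the 3 iEV and 3 iGLI2 libraries and a line at each group mean. The iGLI2 points of ETS2 (28.3 to 39.4 FPKM) sit above its iEV points (8.37 to 9.04 FPKM), and those of ELF3, KLF6 and FOXQ1 sit below theirs.

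ELF3, a driver of epithelial differentiation genes, was the most abundant member in the empty-vector cells and the third in iGLI2 cells. It had 85.0, 85.0 and 84.9 FPKM in iEV replicates 1 to 3 and 63.6, 56.5 and 58.2 FPKM in iGLI2. The groups were separated by 21.3 FPKM, and the iEV libraries lay within 1 FPKM of each other. The mean was 85.0 ± 0.0798 FPKM in iEV and 59.4 ± 3.70 FPKM in iGLI2 (SD, n = 3 each), a difference of -0.51 on the log2 scale (SE 0.06, limma adjusted p = 0.00391). A long non-coding RNA annotated on the same strand overlaps 4288 bases of the ELF3 locus (chr1:201979690-201986315), including exon sequence, and has no row of its own, so its reads cannot be told apart from those of ELF3.

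EHF, like ELF3 an ETS factor of epithelia, did not pass the test. Its levels were 50.3, 57.9 and 59.8 FPKM in iEV and 57.6, 69.2 and 69.6 FPKM in iGLI2. The lowest iGLI2 library, replicate 1, lay inside the iEV range. The difference was 0.22 (SE 0.11, limma adjusted p = 0.198), with a 95% interval from -0.04 to 0.48. It passed with small RNA genes left out and the libraries rescaled (0.30, limma adjusted p = 0.0388, where 24.8% of all genes passed). Without iGLI2 replicate 1 it also passed (0.31, limma adjusted p = 0.0494, where 30% of all genes passed). With the replicate number as a block it passed too (0.22, limma adjusted p = 0.0338, where 31.4% of all genes passed).

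SPDEF, which directs goblet-cell and secretory programs in several epithelia, was close to the lower end of the table. It had 0.175, 0.262 and 0.152 FPKM in iEV and 0.830, 1.28 and 1.44 FPKM in iGLI2. Every iGLI2 library was above every iEV library, and the ratio of the means was 6.02. With a mean of 0.690 FPKM over the 6 libraries it fell under the filter and was not tested. In the fit with no filter the difference was 0.86 (SE 0.11, limma adjusted p = 0.00738), and 15.1% of the 20035 genes of that fit passed. FPKM carry no read numbers, so the counting error behind such low values is unknown.

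ETS2 showed the largest difference among the tested members. It had 9.04, 8.63 and 8.37 FPKM in iEV and 28.3, 39.4 and 36.4 FPKM in iGLI2. Every iGLI2 library was at least 19.2 FPKM above the highest iEV library. The mean was 8.68 ± 0.338 FPKM in iEV and 34.7 ± 5.76 FPKM in iGLI2 (SD, n = 3 each), for a log2 difference of 1.87 (SE 0.13, limma adjusted p = 0.000565). By size this was rise number 158 among the 12493 genes tested. An antisense long non-coding RNA overlaps ETS2 exon sequence at its locus (chr21:40177231-40196878), and the strand setting of the authors' counting is not stated.

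ETS1, which shares its DNA-binding domain type with ETS2, lay at 49.7, 67.1 and 64.3 FPKM in iEV and 94.4, 75.3 and 67.2 FPKM in iGLI2. The groups did not overlap, but the gap between them was 0.0791 FPKM. The difference was 0.38 (SE 0.17, limma adjusted p = 0.164), with a 95% interval from -0.03 to 0.79, and 0.24 without iGLI2 replicate 1 and 0.25 without iEV replicate 1. The replicates 1 were the extremes: the lowest iEV value and the highest iGLI2 value both came from them.

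KLF6 fell by the most among the members. Its levels were 47.3, 49.7 and 46.2 FPKM in iEV and 29.9, 21.4 and 19.2 FPKM in iGLI2. The iGLI2 libraries were all below the iEV libraries, with replicate 1 nearest to them. The mean was 47.7 ± 1.79 FPKM in iEV and 23.5 ± 5.63 FPKM in iGLI2 (SD, n = 3 each), a ratio of 0.492 and a log2 difference of -1.02 (SE 0.16, limma adjusted p = 0.00853).

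KLF4 had 24.4, 43.2 and 36.96 FPKM in iEV and 12.8, 23.3 and 23.5 FPKM in iGLI2. The groups did not overlap but lay 0.933 FPKM apart, between iEV replicate 1 and iGLI2 replicate 3. Replicate 1 was the lowest library of each group. The difference was -0.79 (SE 0.30, limma adjusted p = 0.119), with a 95% interval from -1.53 to -0.06, and it did not pass the threshold over all genes. Without iGLI2 replicate 1 it was -0.52, also not past the threshold (limma adjusted p = 0.170). In a fit that takes the replicate number as a block, described with the other alternatives in the closing section, KLF4 passed, as did 31.4% of all genes. KLF5 had 42.3, 32.3 and 29.9 FPKM in iEV and 47.3, 41.8 and 46.3 FPKM in iGLI2. Its groups overlapped, since iEV replicate 1 was above iGLI2 replicate 2. The difference was 0.38 (SE 0.14, limma adjusted p = 0.108), with a 95% interval from 0.04 to 0.72. Without iEV replicate 1 it was 0.52 and passed (limma adjusted p = 0.0190, where 17.3% of all genes passed).

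FOXQ1 (chr6:1312675-1314993) had 56.7, 51.9 and 54.1 FPKM in iEV and 31.3, 31.7 and 34.4 FPKM in iGLI2. All iGLI2 libraries were at least 17.5 FPKM below the iEV libraries and lay close together. The mean was 54.2 ± 2.39 FPKM in iEV and 32.4 ± 1.70 FPKM in iGLI2 (SD, n = 3 each), a log2 difference of -0.72 (SE 0.07, limma adjusted p = 0.00138). GRHL2 had 14.6, 14.8 and 15.4 FPKM in iEV and 11.8, 13.9 and 15.4 FPKM in iGLI2. These ranges overlapped, and the difference of -0.12 did not pass (SE 0.10, limma adjusted p = 0.435). Its 95% interval ran from -0.36 to 0.12, and the difference was -0.03 without iGLI2 replicate 1, -0.21 without iGLI2 replicate 3 and -0.05 with small RNA genes left out and the libraries rescaled.

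**Figure D2:**
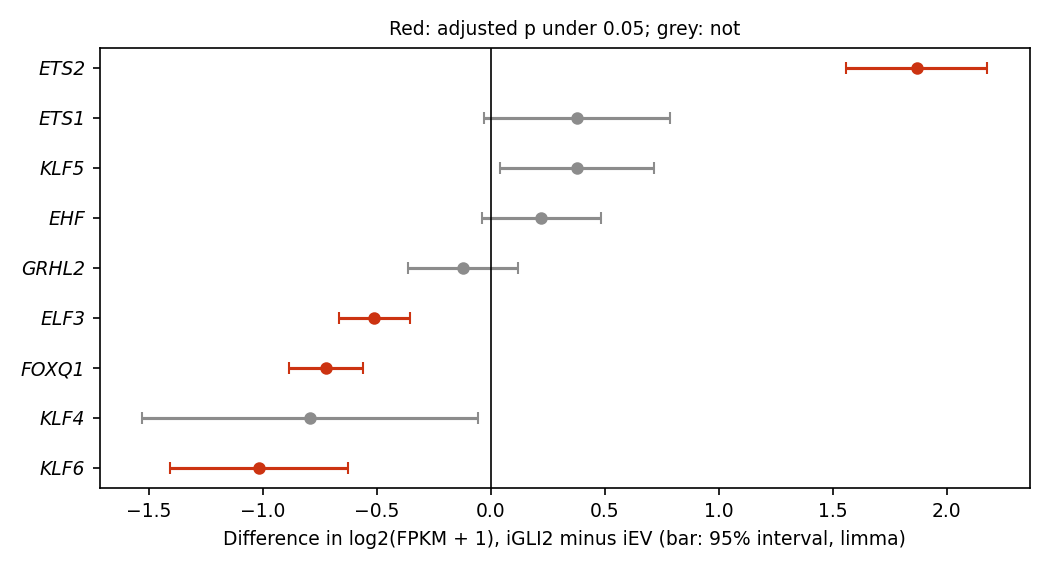
Difference of each tested member, iGLI2 minus iEV, on the log2(FPKM + 1) scale with its 95% interval from limma. ETS2 lies at 1.87 and KLF6 at -1.02, and the intervals of EHF, ETS1 and GRHL2 include 0.

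ETS2, ELF3, KLF6 and FOXQ1 stayed past the threshold without any single library. Their differences then ran from 1.77 to 2.01 for ETS2, from -0.56 to -0.48 for ELF3, from -1.20 to -0.89 for KLF6 and from -0.77 to -0.69 for FOXQ1. Of the 4, ETS2, ELF3 and KLF6 had iGLI2 replicate 1, the library with the least GLI2, nearest to the iEV mean, and FOXQ1 had replicate 3. Over the 2742 genes that passed, replicate 1 was nearest for 46.0%, replicate 2 for 21.7% and replicate 3 for 32.3%. The part of the GLI2 level in this was not tested.

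The order of the members by mean FPKM differed between the groups. In iEV it ran ELF3, ETS1, EHF, FOXQ1, KLF6, KLF4, KLF5, GRHL2, ETS2 and SPDEF, where ETS1 and EHF, EHF and FOXQ1, and KLF4 and KLF5 overlapped as neighbours. In iGLI2 it ran ETS1, EHF, ELF3, KLF5, ETS2, FOXQ1, KLF6, KLF4, GRHL2 and SPDEF. There ETS1 and EHF, EHF and ELF3, ETS2 and FOXQ1, KLF6 and KLF4, and KLF4 and GRHL2 overlapped. ETS2 thus moved from the ninth to the fifth place.

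Ratios of 2 members within a library do not depend on how the libraries were scaled. They are given as a description, since the pairs were chosen after the values were seen. ETS2 over ETS1 was 0.182, 0.129 and 0.130 in iEV and 0.299, 0.523 and 0.542 in iGLI2, so ETS2 gained 3.03-fold on ETS1 in the geometric mean. ELF3 over EHF was 1.69, 1.47 and 1.42 in iEV and 1.10, 0.816 and 0.836 in iGLI2. The more abundant of this pair was ELF3 in every iEV library and EHF in iGLI2 replicates 2 and 3. KLF5 over KLF6 was 0.895, 0.649 and 0.647 in iEV and 1.59, 1.95 and 2.41 in iGLI2: KLF6 exceeded KLF5 in each empty-vector library and KLF5 exceeded KLF6 in each iGLI2 library. KLF5 over KLF4 was 1.73, 0.747 and 0.808 in iEV and 3.71, 1.79 and 1.97 in iGLI2. ELF3 over GRHL2 was 5.50 to 5.83 in iEV and 3.77 to 5.37 in iGLI2, and EHF over GRHL2 was 3.45 to 3.91 and 4.51 to 4.98. None of these 6 ratios overlapped between the groups, but 2 lay close. The highest iEV value of KLF5 over KLF4 was 1.73 and its lowest iGLI2 value 1.79. For ELF3 over GRHL2 the lowest iEV value was 5.50 and the highest iGLI2 value 5.37. Among single genes 42.0% of those tested did not overlap, and the share among other gene pairs was not counted.

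**Figure D3:**
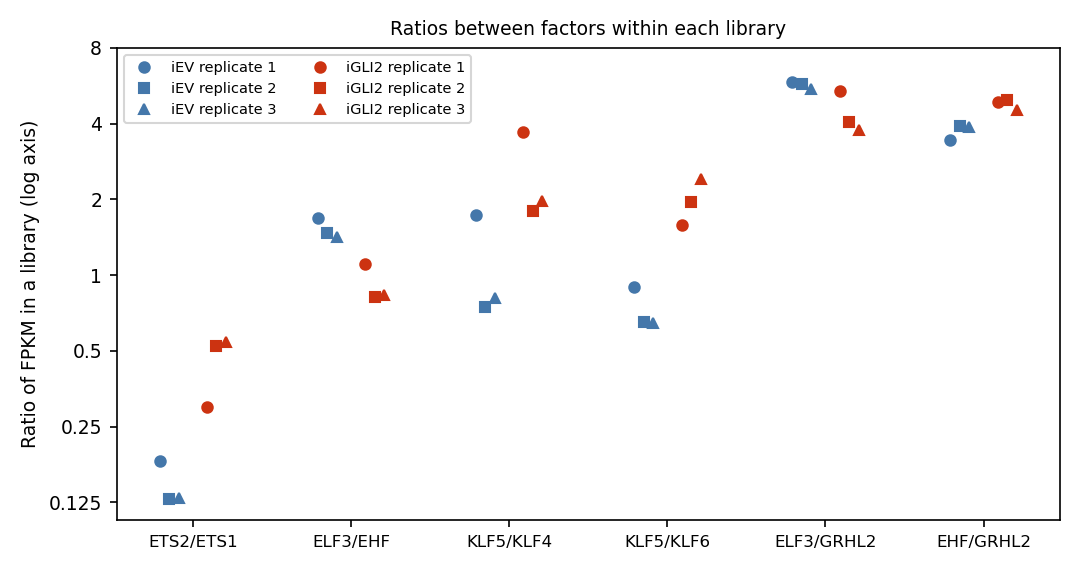
Ratio of FPKM of 2 members within each library, on a log axis, for the 3 iEV and 3 iGLI2 libraries. KLF5 over KLF6 lies between 0.647 and 0.895 in iEV and between 1.59 and 2.41 in iGLI2.

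The summed FPKM of 28 ETS genes was 420 to 432 in iEV and 448 to 473 in iGLI2, and the 5 ETS members made up 46.3 to 50.8% and 51.7 to 53.0% of it. Within that sum ELF3 went from 19.7 to 20.3% in iEV to 12.4 to 13.4% in iGLI2, while ETS2 went from 1.95 to 2.15% to 5.97 to 8.64%. ETS1 held 11.8 to 15.6% and then 15.01 to 19.9%, and EHF 12.0 to 13.9% and then 12.2 to 15.6%. The 26 KLF and SP genes summed to 259 to 273 FPKM in iEV and 251 to 264 FPKM in iGLI2. KLF6 held 17.5 to 18.2% of that sum in iEV and 7.64 to 11.3% in iGLI2, KLF5 11.5 to 15.7% and then 16.5 to 18.4%, and KLF4 9.02 to 15.8% and then 4.83 to 9.35%. The ETS sum was higher in every iGLI2 library, while the KLF and SP sums overlapped. These are descriptions with no test.

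**Figure D4:**
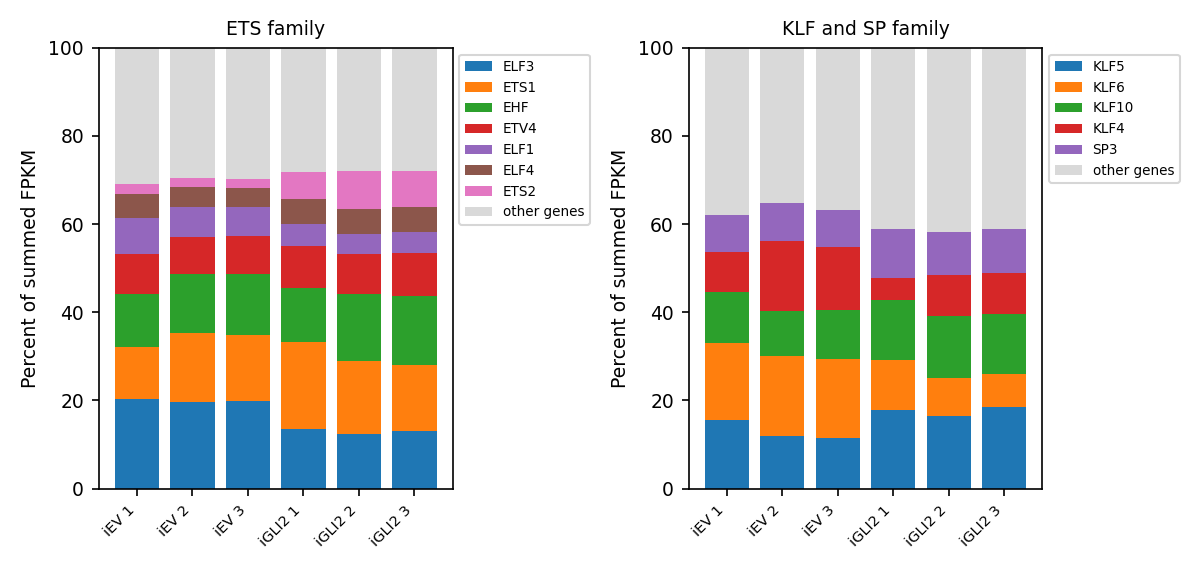
Stacked bars of the share, in percent, that ETS and KLF members and the next genes of their families take of the family's summed FPKM in each of the 6 libraries, with the remaining genes in grey. ELF3 takes 19.7 to 20.3% of the ETS sum in iEV and 12.4 to 13.4% in iGLI2.

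Among the 23 other ETS genes, 16 were tested, 3 rose and 3 fell, with a median difference of -0.02 against -0.01 over all genes. The share called was 37.5%, against 21.9% of all genes tested. ETV1, a PEA3-group factor, rose from 4.17 ± 0.624 to 12.5 ± 0.594 FPKM (log2 difference 1.39, SE 0.10, limma adjusted p = 0.000662). FLI1 fell from 8.53 ± 0.520 to 4.19 ± 1.04 FPKM (-0.89, SE 0.14, limma adjusted p = 0.00970). The most abundant were ETV4, which rose by 0.22 (limma adjusted p = 0.0401), and ELF1, which fell by 0.44 (limma adjusted p = 0.0342). Both calls were lost without any one library other than iGLI2 replicate 1, that of ELF1 also with small RNA genes left out and the libraries rescaled. The list had 3 calls without iEV replicate 2, iEV replicate 3, iGLI2 replicate 2 or iGLI2 replicate 3. In those fits 9.78 to 12% of all genes passed.

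Among the 23 other KLF and SP genes, 12 were tested and 2 rose, and none fell by the adjusted p, while 3 rose and 1 fell at an unadjusted limma p under 0.05. The share called was 16.7%, below the 21.9% of all genes tested. KLF2, known for its role in endothelium and lymphocytes, rose from 6.995 ± 0.572 to 10.6 ± 1.41 FPKM (0.53, limma adjusted p = 0.0201). KLF10, a TGF-beta-responsive factor, rose from 29.3 ± 1.502 to 35.3 ± 0.998 FPKM (0.26, limma adjusted p = 0.0326). SP3 had a difference of 0.19 (limma adjusted p = 0.176). The limma calls of this list numbered 0 without iEV replicate 2, iEV replicate 3, iGLI2 replicate 2 or iGLI2 replicate 3. There 9.78 to 12% of all genes passed, and 3 to 4 genes of the list had an unadjusted limma p under 0.05. Without iGLI2 replicate 1 the list had 4 calls, where 30% of all genes passed.

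Of the 48 other forkhead and grainyhead genes, 26 were tested, 3 rose and 3 fell. The share called was 23.1%, against 21.9% of all genes tested. With no filter 45 were tested, 5 rose and 3 fell. FOXA1, a pioneer factor of endodermal epithelia, went from 0.360 ± 0.0721 to 1.93 ± 0.158 FPKM. It reached the filter of 1 FPKM through the iGLI2 libraries alone and dropped out of the fits without iGLI2 replicate 2 or 3, so the fit with no filter is given (1.11, limma adjusted p = 0.000834). FOXB1 went from 2.08 ± 0.566 to 0.856 ± 0.165 FPKM, so that it reached the filter through its higher iEV levels (-0.72, limma adjusted p = 0.0355 with no filter). With the filter, its call was lost without any single library other than iEV replicate 3. FOXD2, also counted as a rise, went from 0.515 ± 0.0599 to 1.83 ± 0.386 FPKM and likewise reached the filter through the iGLI2 libraries. For FOXA1, FOXB1 and FOXD2 the filter favoured the direction called, so their calls are no measure of the list. FOXA2 and FOXP4, the most abundant of this list, had differences of 0.18 (limma adjusted p = 0.272) and 0.13 (limma adjusted p = 0.486). GRHL1, the other grainyhead gene described here and chosen after its values were seen, had a difference of -0.11 (limma adjusted p = 0.628). The list had 1 call without iGLI2 replicate 2, where 10.9% of all genes passed, and 3 without iGLI2 replicate 3, where 12% passed.

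Epithelial genes moved in both directions, with more calls lower than higher when all 6 libraries were used. Of 26 adhesion, splicing and protease genes, 24 were tested, 3 rose and 9 fell, with a median difference of -0.24. The share called was 50.0%, against 21.9% of all genes tested. OVOL1, a zinc-finger repressor of mesenchymal genes, rose from 3.65 ± 1.25 to 22.9 ± 4.04 FPKM (2.38, SE 0.22, limma adjusted p = 0.00133). Named after their values were seen, CDH1 (E-cadherin) and EPCAM each rose by 0.37 (limma adjusted p = 0.0169 and 0.00709), whereas OVOL2, the paralog of OVOL1, fell by 1.22 (limma adjusted p = 0.0403). OVOL1, CDH1 and EPCAM were all of the 3 that rose. Of the 9 that fell, CGN had a difference of -0.94 (limma adjusted p = 0.000351). ESRP2 had -0.37 (limma adjusted p = 0.0265) and MAL2 -0.69 (limma adjusted p = 0.0428), all named after their values were seen. The fall of ESRP2 was not shared by its paralog ESRP1, which was more abundant (iEV mean 85.1 FPKM, against 15.7 FPKM for ESRP2). The ESRP1 difference of 0.004 did not pass (limma adjusted p = 0.992). KRT19 and SPINT2, the most abundant of the list, had differences of -0.18 and 0.04 and did not pass (limma adjusted p = 0.195 and 0.688). The call of OVOL2 was lost without any one library other than iGLI2 replicate 1, and that of CDH1 without iEV replicate 2, iEV replicate 3, iGLI2 replicate 2 or iGLI2 replicate 3. The list had 5 calls without iEV replicate 1 (3 higher, 2 lower), where 17.3% of all genes passed. It had 4 (2 higher, 2 lower) without iEV replicate 2, iEV replicate 3 or iGLI2 replicate 2, where 9.78 to 10.9% passed. Without iGLI2 replicate 3 it had 6 (2 higher, 4 lower), where 12% passed. Without iGLI2 replicate 1 it had 14 (3 higher, 11 lower), where 30% passed. Only without iGLI2 replicate 1 or 3 were more calls lower than higher. At an unadjusted limma p under 0.05, 3 to 4 genes were higher and 10 to 13 lower in each of these fits.

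Of the 6 genes for repressors that drive epithelial-mesenchymal transition (EMT), SNAI2 alone reached the filter. It went from 6.96 ± 1.29 to 11.1 ± 1.63 FPKM (0.61, SE 0.15, limma adjusted p = 0.0379), and the call was lost without iEV replicate 2, iEV replicate 3, iGLI2 replicate 2 or iGLI2 replicate 3 (limma adjusted p = 0.113 to 0.126), with no filter (limma adjusted p = 0.0552) and with the replicate number as a block (limma adjusted p = 0.0703). Of 17 goblet-type secretory genes, the kind that SPDEF is known to direct, 10 were tested and 2 rose, and none fell by the adjusted p, while 3 rose and 1 fell at an unadjusted limma p under 0.05. The share called was 20.0%, against 21.9% of all genes tested. MUC5AC, a gel-forming mucin, went from 3.54 ± 0.867 to 44.04 ± 20.2 FPKM (3.20, SE 0.40, limma adjusted p = 0.00387), with 20.8, 57.2 and 54.1 FPKM in the iGLI2 libraries. TSPAN8, chosen after its values were seen, rose by 1.04 (limma adjusted p = 0.00584). TFF2 and AGR2, the most abundant of the list, had differences of -0.88 (limma adjusted p = 0.129) and 0.04 (limma adjusted p = 0.767). TFF2 passed without iGLI2 replicate 1 (-1.22, limma adjusted p = 0.0211) and with the replicate number as a block (-0.88, limma adjusted p = 0.0109). The other trefoil genes of the list, named after their values were seen, did not pass. TFF3 went from 276 ± 113 to 629 ± 220 FPKM (1.21, limma adjusted p = 0.0556), and TFF1 had a difference of -0.64 (limma adjusted p = 0.321).

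**Figure D5:**
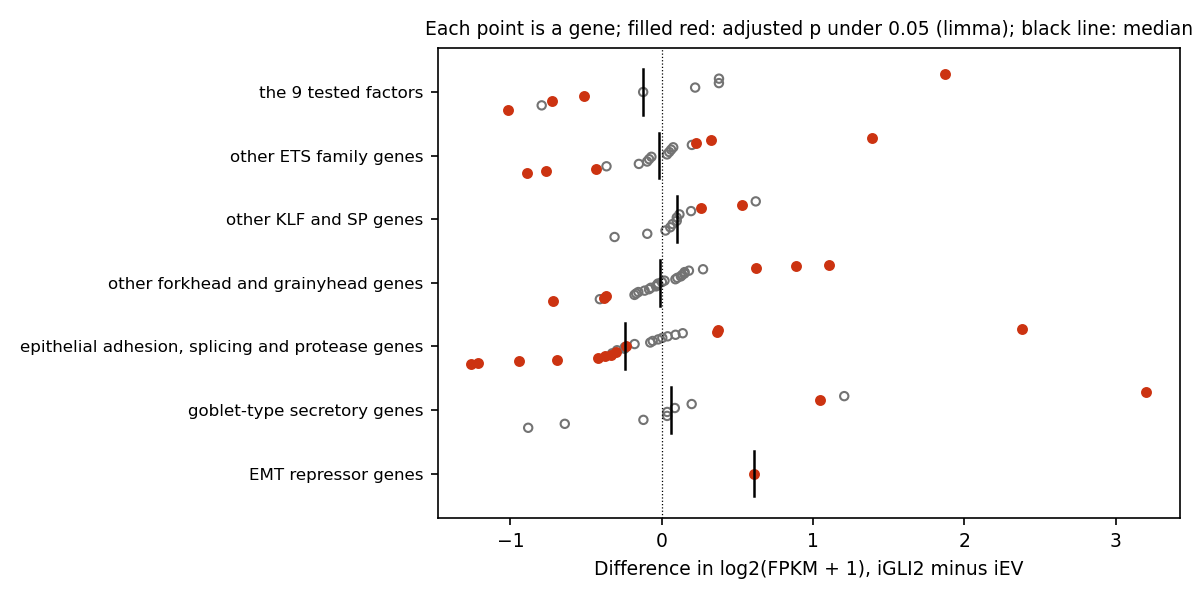
Difference of every tested gene, iGLI2 minus iEV on the log2(FPKM + 1) scale, for the 9 tested factors and each of the 6 gene lists, with genes past a limma adjusted p of 0.05 in red and a line at each median. MUC5AC at 3.20 and OVOL1 at 2.38 lie highest.

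The genes whose profile over the 6 libraries lay nearest to a member were found by the root mean square distance of centred log2(FPKM + 1). Nearest to ETS2 were UCN2 at 0.06, NPTXR at 0.07 and MAMLD1 at 0.08. UCN2 and NPTXR were under 1 FPKM in every iEV library and reached the filter through the iGLI2 libraries. There UCN2 had 2.70, 3.81 and 3.92 FPKM and NPTXR 4.67, 5.87 and 5.93 FPKM. The log2(FPKM + 1) scale understates the change of such low genes. A small distance on it therefore does not mean the same fold change as ETS2. Nearest to FOXQ1 were SIGIRR at 0.03 and SLC15A1 at 0.05. Nearest to ELF3 were TMEM109 at 0.03, ZBED5 at 0.03 and the merged row of BUB1B and PAK6 at 0.03. These distances describe these libraries only, and carry no p.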

How the data were processed

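RNA-seq libraries from 3 iEV and 3 iGLI2 YAPC samples were analysed from 1 expression table. Per the labels, libraries were made with a TruSeq RNA kit. Reads were trimmed with Trimmomatic, and the submitters' processing notes name TopHat2, hg19 and Cuffdiff 2.1.1. The annotation and the strand setting are not given in the sources used here. The values deposited by the authors were taken as FPKM, although the table's header names no unit; they hold no read counts, so depth and counting error are unknown. Of 27024 rows, 1252 off the primary chromosomes and 330 duplicate names were dropped (the row with the highest mean was kept), and 27 names written as dates were kept by position. The 12493 of 25442 genes averaging 1 FPKM or more over the 6 libraries were tested as log2(FPKM + 1), which understates the change of low genes, with limma 3.58.1 in R 4.3.3 (trend, group as the only term, two-sided, Benjamini-Hochberg adjustment over all genes tested, threshold 0.05). The script was tested on simulated data.

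The 10 members and the gene lists were chosen with earlier results of these data known. The genes named from each list are the called gene with the largest rise, the called gene with the largest fall and the 2 with the highest means, and the genes nearest in profile are given for the 3 members with the smallest p. Some of the genes these rules name are not reported here. Promoters came from the RefSeq table (8 members examined), and positions, exons and overlapping genes from GENCODE v44 lifted to GRCh37. Alternatives changed the scaling, the pseudocount (0.1), the filter (none, or a mean of at least 5 FPKM), the trend, the replicate block and the libraries.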

Additional observations from a re-analysis of the deposited data

How the results depend on the processing

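ELF3, ETS2, KLF6 and FOXQ1 passed the threshold in the same direction under every alternative run. Members called numbered 4 to 5 without single libraries, where 9.78 to 30% of all genes passed. They numbered 5 with no filter (SPDEF added, 15.1% of all genes) and 5 with small RNA genes left out and libraries rescaled (EHF added, 24.8%). That rescaling moved the share of higher genes among all calls from 46% to 59.4%. Same-numbered libraries deviated together weakly (correlations 0.204, 0.092 and 0.028), so the numbers were not taken as pairs. An unlike pair, iEV replicate 2 with iGLI2 replicate 3, had 0.117. The codes of the third libraries end in unlike letters, A in iEV and B in iGLI2, so what the replicate block stands for is unknown. Under the replicate block 6 members and 31.4% of all genes passed, and KLF4 was -0.79 (limma adjusted p = 0.00586) and EHF 0.22 (0.0338). With the block, other KLF and SP calls numbered 4, EMT repressor calls 0 (1 at an unadjusted limma p under 0.05) and goblet-type calls 5. With the rescaling and the block together, an alternative chosen after seeing the data, 7 members and 4894 genes (40.3% of all tested) passed. There EHF was 0.30, KLF4 -0.72 and KLF5 0.45, and the other KLF and SP calls numbered 5, forkhead and grainyhead calls 10 and goblet-type calls 5. EHF was 0.30 under the rescaling alone. With no filter, other KLF and SP calls numbered 4 and EMT repressor calls 0 (2 at an unadjusted limma p under 0.05). With a mean of at least 5 FPKM, forkhead and grainyhead calls numbered 3.

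Without single libraries, all genes called ran from 1222 (without iEV replicate 2) to 3744 (without iGLI2 replicate 1), other ETS calls from 3 to 5, KLF and SP calls from 0 to 4, forkhead and grainyhead calls from 1 to 6, epithelial calls from 4 to 14, EMT repressor calls from 0 to 1 and goblet-type calls from 2 to 3. EHF ran from 0.15 to 0.31, KLF5 from 0.28 to 0.52, KLF4 from -1.02 to -0.52, ETS1 from 0.24 to 0.49, GRHL2 from -0.21 to -0.03, and AGR2, not called, ran from -0.012 (turned, without iGLI2 replicate 1) to 0.0784, and GRHL1, also not called, from -0.203 to 0.0437 (turned, without iEV replicate 1). The causes were not tested. Without read counts, no limit from depth can be set for SPDEF.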
